A study of Mus musculus with 57 samples.

Results

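Mice of the inbred strain C57BL/6NCrl share almost all of their genome, yet differ widely in how much ethanol they drink when they can choose. The comparison described here sets the heaviest drinkers of the study against its moderately heavy drinkers, and so asks which transcripts of the prefrontal cortex (PFC) differ within the upper range of intake, apart from the contrast of drinkers with near abstainers. The PFC is the frontal part of the cortex that plans and restrains behaviour, and it sends excitatory, glutamate-releasing projections to the nucleus accumbens (NAc) and the ventral midbrain (VMB, which includes the ventral tegmental area and its dopamine neurons). Changes in its glutamate receptors, synaptic proteins and chromatin enzymes have long been studied in relation to alcohol drinking.

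Of 57 arrays in the series, 19 were titled PFC, and 11 of these entered the comparison. The heaviest drinkers were 5 mice, numbered 1, 4, 12, 13 and 17, and the moderately heavy drinkers were 6 mice, numbered 2, 7, 8, 15, 19 and 20. All were young adult male C57BL/6NCrl mice, housed singly, and each array held RNA of 1 mouse. Every mouse chose between 10% (w/v) ethanol and tap water for 18 h a day, in 4 sessions followed by 4 days without ethanol, until 16 sessions were done. Tissue was taken 6 days after the last session, so the values were measured after days without ethanol. Both groups drank, and no mouse of the comparison was ethanol-naive, so the contrast is one of amount and not of drinking against none. Drinking more is also a greater exposure to ethanol. Levels that preceded the drinking cannot be told apart here from levels that followed it. The sample labels hold no intake. The groups follow the mouse numbers on a bar chart of average intake that was read by eye, and the drinking days behind that chart were not established here. The array titles give only replicate numbers, which were taken as these mouse numbers. Mouse 4 lay just inside the heaviest group and mouse 8 just outside it, and their error bars on the chart overlapped, so the boundary between the groups is not sharp. Nothing says how mice were assigned to arrays or scan days, and no batch is named.

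The arrays were Affymetrix mouse expression arrays, on which a gene is measured by 1 or more sets of short probes (probesets). The deposited values are RMA levels on the log2 scale, on which a difference of 1 is a 2-fold difference, and all levels and differences below are on that scale. A probeset was tested if it reached a level of 4.5 on at least 1 of the 57 arrays, which kept 19815 of 22626 probesets. Counts over genes use 1 probeset for each of 11342 genes, the one with the highest mean over the 11 arrays. The 11 arrays were much alike, with medians of 5.66 to 5.70 and correlations across probesets between 0.992 and 0.996. On the first principal component, which held 17.6% of the variance, the heaviest drinkers ranged from -11.3 to 14.8 and the moderately heavy from -16.2 to 10.3.

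The tissue had the markers of cortex. Tbr1, which specifies excitatory neurons of the deep cortical layers, was at 7.51 to 8.21 over the 11 arrays. Its means in heaviest and moderately heavy drinkers were 6.61 and 6.55 in NAc, and 3.03 or less in VMB. The dopamine transporter gene Slc6a3 was at 3.83 to 4.24 in PFC, under the filter level, and at means of 9.01 and 9.22 in VMB. The striatal receptor gene Drd2 was at 3.93 to 4.20 in PFC. The array of moderately heavy mouse 20 was titled PFC, while another of its label fields named the ventral tegmental area. Its cortical excitatory neuron markers had a mean of 7.38 (7.55 on the other 10 arrays, 5.21 in VMB) and its dopamine neuron markers a mean of 4.63 (4.59 and 7.01). Its mean correlation with the other 18 PFC arrays was 0.996 (0.966 with NAc and 0.955 with VMB), so it was kept as PFC. The counts over all probesets and those of 6 gene lists are also given without it.

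No transcript separated the heaviest from the moderately heavy drinkers once the number of tests was taken into account. By limma with Benjamini-Hochberg adjustment, 0 of 19815 probesets (0%) passed the 1% false discovery rate that the study used, and the smallest adjusted p over all probesets was 0.9996. At an unadjusted p under 0.05 there were 671 probesets (3.39%), of which 345 were higher in the heaviest drinkers (1.74%) and 326 lower (1.65%). An even spread of p-values would put 991 there, as the histogram of p-values shows. Without the array of mouse 20 the adjusted count was again 0, with 715 probesets at unadjusted p under 0.05. In 43 probesets (0.217%) the 5 heaviest and the 6 moderately heavy drinkers did not overlap, 16 of them higher (0.0807%) and 27 lower (0.136%) in the heaviest. Over the 462 ways to split the 11 mice, such a separation has a probability of 0.00433 for a probeset, above the share seen. Fewer mice are easier to separate. With 1 mouse left out the count without overlap was 77 (without mouse 19) to 171 (without mouse 13), with 111 for mouse 20. It was 197 without mice 4 and 8.

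**Figure D1:**
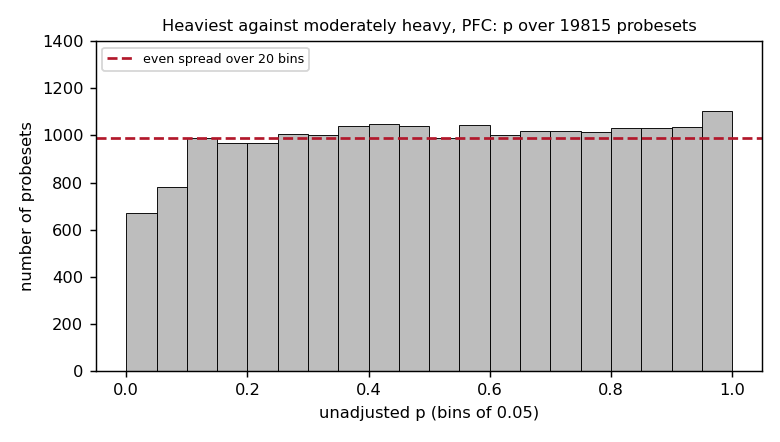
Histogram of the unadjusted limma p-values of 19815 probesets for heaviest against moderately heavy drinkers in PFC, in bins of 0.05 (x axis) with the number of probesets in each bin (y axis). The dashed line marks an even spread of 991 a bin, and the first bin holds 671.

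The differences were small and bounded. The median standard error of a gene's difference was 0.07 and its 95% interval reached a median of 0.16 to either side. For 11265 of 11342 genes (99.3%) the interval, taken gene by gene, lay inside a 1.5-fold difference in either direction. Of the 19815 tested probesets, 14951 reached 4.5 on at least 6 of the 11 arrays. For the others the interval bounds the array level, which may not follow the transcript so near the background. Only 93 genes differed by more than 0.25 and 4 by more than 0.50, and these 4 were named for that size after the values were seen. Cap1, which encodes an actin-regulating cyclase-associated protein, was at 6.92, 6.97, 6.87, 6.88 and 7.54 in heaviest mice 1, 4, 12, 13 and 17 and from 5.20 to 7.08 in the moderately heavy. The difference was 0.67, and the groups overlapped, with mice 2 and 8 at 7.08 and 7.0 inside the range of the heaviest. Tenm1, a teneurin of synaptic adhesion, differed by 0.58 and Tmem267 by -0.63, with overlap in both. Gh, the growth hormone gene, differed by -0.51 through 1 array, since mouse 19 was at 7.39 and the other 10 mice at 4.18 to 4.51.

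The 24 genes with the smallest p at a mean level of at least 5 in either group, 12 in each direction, are described next by what their products do. The genes, and the probeset named for each, were selected for their p, so their sizes are a description. Their differences ranged from 0.16 to 0.42 in size, their unadjusted limma p from 0.00077 to 0.00749, and all 24 had adjusted p of 0.9996 or more by limma. In 7 of the 24 the groups did not overlap, 3 higher and 4 lower in the heaviest drinkers, beside 0.217% of all tested probesets. The 24 were chosen by p, so a high share without overlap follows from the choice. Each also has a two-sided exact permutation p over the 462 ways to split 11 mice into 5 and 6, for which 0.00433 is the smallest value possible. These exact p-values are not adjusted for the choice among 8040 genes at that level. In the plot of the 24 genes by mouse, the heaviest drinkers' points lie to 1 side of most of the moderately heavy drinkers' points in each row, with some overlap in all rows but those of the 7 genes.

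**Figure D2:**
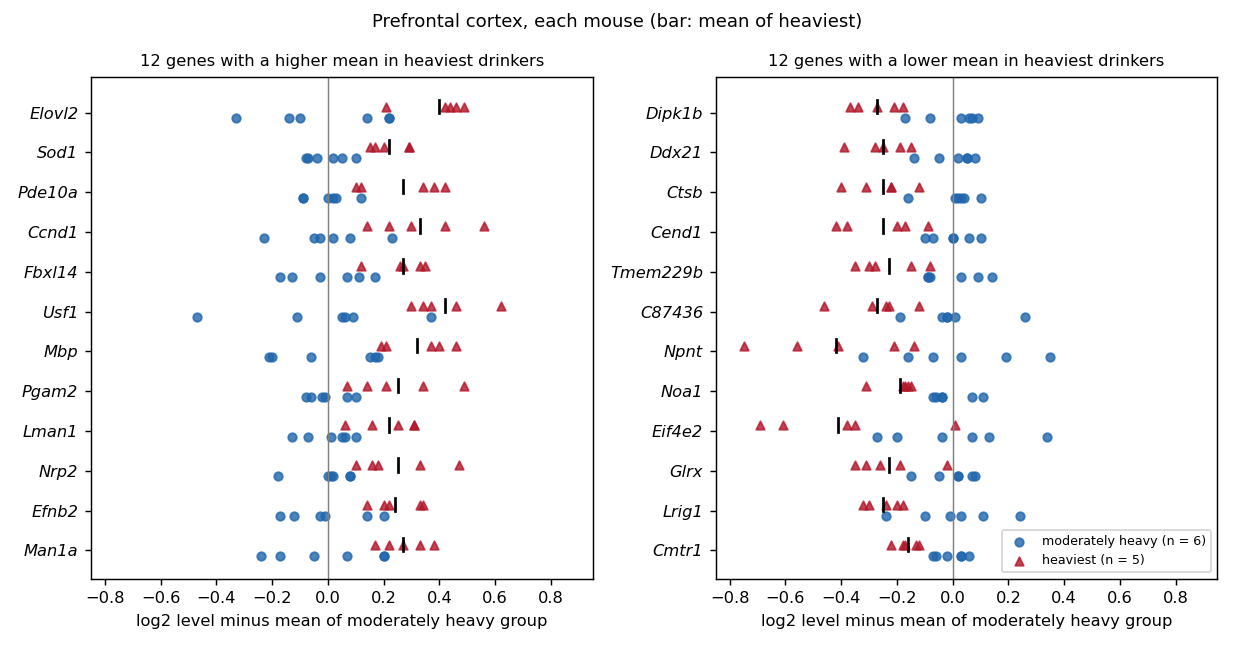
Level of each of the 24 named genes in each mouse, as log2 level minus the mean of the moderately heavy group (x axis), with triangles for the 5 heaviest drinkers, circles for the 6 moderately heavy and a bar at the mean of the heaviest. Sod1, Mbp, Nrp2, Dipk1b, Ddx21, Noa1 and Cmtr1 are the 7 genes without overlap.

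Elovl2, Lman1 and Man1a, all higher, act in lipid synthesis and the secretory pathway. Elovl2 encodes an elongase of very long-chain polyunsaturated fatty acids. It was at 4.96, 5.24, 5.17, 5.21 and 5.19 in heaviest mice 1, 4, 12, 13 and 17, and at 4.42, 4.77 and 4.97 (lowest, median and highest) in the moderately heavy. Mouse 1 alone lay within the range of the moderately heavy, and the difference was 0.40 (95% interval 0.19 to 0.61, exact permutation p = 0.013). Lman1, a cargo receptor between endoplasmic reticulum and Golgi, was higher by 0.21 with 4 of 5 heaviest mice above all moderately heavy. Man1a, a Golgi mannosidase that trims N-glycans, was higher by 0.27, also with 4 of 5 above. Other probesets did not share these differences: the 3 others of Lman1 differed by -0.10 to 0.05 and the other of Man1a by -0.06.

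The axon guidance receptor gene Nrp2 (neuropilin 2, which binds class 3 semaphorins) was at 6.61, 6.32, 6.47, 6.24 and 6.30 in the heaviest drinkers, in the same order of mice, and at 5.96, 6.16 and 6.22 in the moderately heavy. The groups were separate by a narrow margin between mouse 13 at 6.24 and mice 2 and 8 at 6.22. The difference was 0.25 (0.08 to 0.41, exact permutation p = 0.00433). Efnb2 encodes ephrin-B2, a membrane ligand of Eph receptors. It was at 8.46, 8.47, 8.33, 8.27 and 8.35, against 7.96, 8.11 and 8.33, a difference of 0.24 (0.08 to 0.40), with 3 of 5 heaviest mice above all others. Its 3 other probesets differed by 0.01 to 0.04.

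Pde10a, a phosphodiesterase that degrades cAMP and cGMP and is best known from striatal projection neurons, was at 6.63, 6.31, 6.59, 6.33 and 6.55 in the heaviest drinkers and at 6.12, 6.22 and 6.33 in the moderately heavy. Mice 4 and 13 lay within the moderately heavy range and the other 3 above it, with a difference of 0.27 (0.12 to 0.43, exact permutation p = 0.013). Of the striatal projection neuron markers as a list, which includes Pde10a, 2 of 7 were higher and 5 lower, with a median of -0.015. By mouse, the list mean was 7.036, 6.982 and 6.97 in heaviest mice 1, 12 and 17. It was 6.795 and 6.807 in mice 4 and 13, the same split as for Pde10a. Among the moderately heavy the list mean was highest in mouse 8, at 7.003, and Pde10a in mouse 2. Whether Pde10a moved with the other markers was not tested. Rasd2, a small G protein on the same list, was at 8.26 ± 0.17 (SD, n = 5) in the heaviest and 8.45 ± 0.15 (n = 6) in the moderately heavy drinkers. Its difference was -0.19 (exact permutation p = 0.0866), and -0.32 on its other probeset.

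Mbp, the gene of myelin basic protein, gave opposite pictures on different probesets. On the dimmest of its 8 probesets it was at 7.23, 6.98, 7.17, 7.14 and 6.96 in the heaviest drinkers, all above the moderately heavy at 6.56, 6.82 and 6.95, a difference of 0.32 (0.13 to 0.51, exact permutation p = 0.00433). The 7 other Mbp probesets, with means of 8.04 to 12.01, differed by -0.10 to -0.01. The 13 oligodendrocyte and myelin markers were lower in 11 and higher in 2, with a median of -0.071, and varied more between mice than any other marker list. Their mean level was 7.11 to 7.87 in the heaviest and 7.08 to 8.18 in the moderately heavy drinkers, lowest in mice 2 and 4 and highest in mice 8 and 12, so both groups held both ends. The direction of the list rested on single arrays of the boundary mice, since 10 of 13 markers were higher without mouse 4 (median 0.021), 12 without mouse 8 (0.032) and all 13 without both (0.146). Without mouse 20, 10 were lower. Neither that spread nor its part in the Mbp value was tested. In bulk tissue, fewer cells of a type and less RNA per cell cannot be told apart.

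Genes of growth, transcription and protein turnover were also among the higher ones. Ccnd1 encodes cyclin D1, which drives entry into the cell cycle. It was at 7.55, 7.41, 7.13, 7.21 and 7.29 in the heaviest drinkers, against 6.76, 6.99 and 7.22, a difference of 0.32 (0.13 to 0.51, exact permutation p = 0.013). Its other 2 probesets were higher too, by 0.32 and 0.15. Usf1, a transcription factor that binds E-box elements, was at 6.22, 6.15, 6.47, 6.31 and 6.19, against 5.38, 5.90 and 6.22, a difference of 0.42 that overlapped in mouse 2 of the moderately heavy group. Its other probeset was higher by 0.20. Fbxl14, an F-box subunit of ubiquitin ligases, was higher by 0.27, with 4 of 5 heaviest mice above all moderately heavy.

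The named genes of redox balance and mitochondria pointed both ways. Sod1, the cytosolic copper-zinc superoxide dismutase, was at 6.50, 6.36, 6.50, 6.41 and 6.38 in the heaviest drinkers and at 6.13, 6.20 and 6.31 in the moderately heavy on its dimmer probeset. The groups did not overlap there (difference 0.22, 0.10 to 0.35, exact permutation p = 0.00433). The brighter probeset of Sod1 was at 9.88 in both groups and differed by 0.00. Pgam2, the muscle form of phosphoglycerate mutase in glycolysis, was higher by 0.25. Glrx, which encodes glutaredoxin, an enzyme that reduces protein-glutathione disulfides, was at 7.22, 7.06, 7.15, 7.10 and 7.39, against 7.26, 7.43 and 7.49, so that only mouse 17 reached the moderately heavy. Its difference was -0.22 (-0.37 to -0.08) and -0.18 on its other probeset. Noa1, a GTPase needed for protein synthesis in mitochondria, was at 6.21, 6.20, 6.22, 6.07 and 6.23, all below 6.31, 6.34 and 6.49. The difference was -0.19 (-0.31 to -0.07, exact permutation p = 0.00433).

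Ddx21, Cmtr1 and Eif4e2, all lower, act on RNA and translation. Ddx21, a nucleolar RNA helicase of ribosome production, was at 4.61, 4.85, 4.81, 4.72 and 4.75 in the heaviest drinkers and at 4.86, 5.03 and 5.08 in the moderately heavy. The groups did not overlap (difference -0.25, -0.39 to -0.12, exact permutation p = 0.00433), but mouse 4 at 4.85 and mouse 19 at 4.86 all but touched, the level is near the filter, and the brighter probeset differed by 0.04. Cmtr1, which methylates the mRNA cap, was lower by a small and even margin, at 7.63 to 7.73 against 7.78 to 7.91, a difference of -0.16 (-0.27 to -0.05). Eif4e2, a cap-binding protein that represses translation, was lower by 0.41, with mouse 13 at 5.05 inside the moderately heavy range and the other 4 at 4.35 to 4.69. Its 3 other probesets differed by -0.11 to -0.04.

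Among the remaining lower genes, Dipk1b had the smallest p. It was at 8.24, 8.17, 8.30, 8.33 and 8.14 in the heaviest drinkers and at 8.34, 8.56 and 8.60 in the moderately heavy, with no overlap and a difference of -0.27 (-0.41 to -0.14, exact permutation p = 0.00433). Ctsb, the lysosomal protease cathepsin B, was at 6.86, 6.95, 7.04, 7.14 and 7.04, against 7.10, 7.28 and 7.36, a difference of -0.26. Its 3 other probesets were lower by 0.04 to 0.10. Cend1, a neuronal protein that promotes exit from the cell cycle, was lower by 0.25, and by 0.17, 0.11 and 0.17 on its other probesets, so all 4 pointed the same way. Npnt, the matrix protein nephronectin, was lower by 0.42 with wide spread (6.14 ± 0.25 and 6.56 ± 0.24, SD, n = 5 and 6). Lrig1, a membrane inhibitor of growth factor receptors, was lower by 0.25, Tmem229b by 0.23 and C87436 by 0.27.

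Of the 24 genes, 16 had other tested probesets. All of these pointed the same way in 10 genes, none in 4 (Sod1, Mbp, Man1a and Ddx21), and they were mixed in Lman1 and Npnt. Another probeset had an unadjusted p under 0.05 in the same direction in 6 genes, namely Ccnd1, Usf1, Cend1, Npnt, Glrx and Lrig1. When each mouse was left out in turn, all 24 genes kept their direction and an unadjusted limma p under 0.05, which follows in part from their choice by p.

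The study wrote about 6 prefrontal glutamate network genes, chosen by it on these mice. Of these 6, 0 had an unadjusted limma p under 0.05, beside 3.14% of all genes. A list of 6 is too short for that count to set them apart from other genes. Htt alone had an exact permutation p under 0.05. Grin2b, the GluN2B subunit of NMDA receptors, was at 5.82, 5.53, 5.84, 5.64 and 5.75 in the heaviest drinkers and at 5.37, 5.56 and 5.87 in the moderately heavy, a difference of 0.14 (-0.04 to 0.33, exact permutation p = 0.182). Its other probeset, at means of 3.85 and 3.94, differed by -0.09. Dlg4, which encodes the synaptic scaffold PSD-95, varied mostly within the moderately heavy group, from 7.82 in mouse 20 to 9.12 in mouse 19, and differed by 0.08 (-0.35 to 0.52). Without mouse 15 or mouse 20 its difference was -0.03 or -0.04. The other probesets of Dlg4 differed by 0.08 and -0.09. Htt, the huntingtin gene, was at 6.50 to 6.59 against 6.55 to 6.68, a difference of -0.08 (exact permutation p = 0.0303, unadjusted limma p = 0.145). Th, the rate-limiting enzyme of dopamine synthesis, differed by 0.07 at a level of 4.29 to 4.71. Grin3b and Grik1, other ionotropic glutamate receptor subunits, lay at 3.19 to 3.81, under the filter level on all 11 arrays, and differed by -0.06 and 0.04.

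Glutamate and GABA receptor genes differed little in PFC. Of 14 NMDA, AMPA and kainate receptor subunits, 8 were higher and 6 lower with a median of 0.012, and 1 had an unadjusted p under 0.05, beside 3.14% of all genes (1.54% higher and 1.6% lower). That gene was Grin2d, a further NMDA receptor subunit, which was at 4.71 ± 0.07 (SD, n = 5) against 4.90 ± 0.12 (n = 6), lower by 0.18. Of 10 GABA-A receptor subunit genes, 8 were higher and 2 lower with a median of 0.015. The postsynaptic scaffold list had 6 of 11 higher (median 0.009), and the 1 measured metabotropic glutamate receptor gene differed by -0.01. For all 11342 genes, 48.4% were higher in the heaviest drinkers and the median difference was -0.003.

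Genes of the synaptic vesicle cycle were lower in 26 of 45 and higher in 19, with a median of -0.021. Syn2, synapsin II, which tethers vesicles, was at 10.64, 10.39, 10.22, 10.29 and 10.46 against 10.01, 10.20 and 10.34, a difference of 0.22 (0.04 to 0.41), while its other probeset differed by 0.06. Sh3gl2, endophilin A1 of vesicle endocytosis, was higher by 0.13, and its 2 other probesets differed by -0.04 and 0.00. Of 20 sodium and calcium channel genes, 13 were higher. Cacna2d1, the calcium channel subunit that binds gabapentin, was higher by 0.28 (exact permutation p = 0.0952) with 3 of 5 heaviest mice above all moderately heavy. Of 32 potassium channel genes, 21 were lower (median -0.015) and 0 had an unadjusted p under 0.05 by limma, beside 3.14% of all genes.

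The chromatin lists had medians close to 0. Of 21 histone deacetylases and corepressors 13 were higher (median 0.002), of 10 histone acetyltransferases 8 were higher (median 0.014), and of 25 DNA and histone methylation genes 12 were higher (median -0.001). Dnmt3a, a de novo DNA methyltransferase, was at 7.24, 7.23, 7.14, 7.04 and 7.09 in the heaviest drinkers and at 6.83, 7.0 and 7.12 in the moderately heavy, a difference of 0.17 (0.02 to 0.31, exact permutation p = 0.0303). All 4 of its other probesets were higher as well, by 0.09 to 0.26, with unadjusted limma p of 0.053 or more. Sirt1, a deacetylase that depends on NAD, was higher by 0.20 (0.02 to 0.37, exact permutation p = 0.0519), with 3 of 5 heaviest mice above all moderately heavy.

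Neuropeptide, stress and activity genes differed little. Npy, neuropeptide Y of cortical interneurons, was at 10.01, 9.96, 9.92, 9.77 and 9.87 against 9.98, 10.02 and 10.21, lower by 0.14 (-0.28 to -0.01, exact permutation p = 0.0173) with only mouse 1 inside the moderately heavy range. Over 23 opioid, stress and reward neuropeptide genes, 15 were higher with a median of 0.033. Egr1, an immediate early transcription factor induced by neuronal activity, was at 10.32, 10.20, 10.44, 9.95 and 10.16 against 9.91, 9.97 and 10.23. The difference was 0.20 with overlap (exact permutation p = 0.0649). The 24 immediate early genes divided into 12 higher and 12 lower. Of 19 glucocorticoid receptor and responsive genes 13 were lower (median -0.026), while Cdkn1a, a cell cycle inhibitor on that list, was higher by 0.16 on 1 probeset and differed by -0.06 on the other. Ddc, the decarboxylase that makes dopamine and serotonin, was lower by 0.21 (4.61 ± 0.10 and 4.82 ± 0.14, SD, n = 5 and 6), and of 9 catecholamine genes 5 were higher. Circadian clock genes were lower in 12 of 20 (median -0.021). Of the 12 genes named only as list members at unadjusted limma p under 0.05 (Grin2d, Syn2, Sh3gl2, Cacna2d1, Dnmt3a, Sirt1, Npy, Egr1, Cdkn1a, Ddc, Rasd2 and Fgfr3), Ddc and Grin2d stayed under it with each mouse left out in turn, and the other 10 did not. The levels of Ddc (4.61 and 4.82) and Grin2d (4.71 and 4.90) are near the filter.

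Both mitochondrial lists leaned to the lower side. Of 66 genes of the respiratory chain and ATP synthase, the complexes that turn electron flow into ATP, 58 were lower in the heaviest drinkers and 8 higher, where 51.6% of all genes were lower. The lean ran through every complex, with 24 of 29 genes lower in complex I, 4 of 4 in complex II, 9 of 9 in complex III and cytochrome c, 8 of 9 in complex IV and 13 of 15 in the ATP synthase. The sizes were tiny, with a median of -0.043, and 0 of the 66 had an unadjusted p under 0.05 by limma, beside 3.14% of all genes. Ndufs3 of complex I was at 9.84 ± 0.08 (SD, n = 5) against 9.97 ± 0.10 (n = 6), a difference of -0.12 (-0.26 to 0.01), and Cycs, cytochrome c, differed by -0.13 (-0.30 to 0.04). Ndufs8 of complex I was the gene farthest the other way, at 0.12 (-0.02 to 0.25). Ndufv1 was counted as higher by 0.04 through its brightest probeset, while on another probeset it was lower by 0.15 with no overlap between the groups.

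The 67 mitochondrial ribosomal protein genes, which build the ribosome that translates mitochondrial DNA, were lower in 55 and higher in 12 (median -0.035). Mrpl34 was at 7.44 ± 0.06 against 7.56 ± 0.07 (SD, n = 5 and 6), a difference of -0.12 (-0.24 to 0.00), and the other members differed by -0.12 to 0.08. Again 0 of the 67 had an unadjusted p under 0.05 by limma, beside 3.14% of all genes. Genes of 1 complex are measured on the same arrays and move together, so 58 of 66 is not 66 separate observations, and the spread between mice is what counts. The mean level of the respiratory list was 10.43, 10.39, 10.47, 10.46 and 10.41 in heaviest mice 1, 4, 12, 13 and 17 and 10.42, 10.47 and 10.54 in the moderately heavy. The groups overlapped, as the plot of list means shows, with mouse 15 highest and mouse 4 lowest. For mitochondrial ribosomal proteins the means were 7.84 to 7.94 against 7.86 to 7.99. The counts of lower genes ranged from 46 (without mouse 15) to 62 for the respiratory list and from 45 (without mouse 19) to 59 for mitochondrial ribosomal proteins as each mouse was left out, with 56 and 58 for mouse 20. Proteasome subunits (19 of 31 lower, median -0.013) and cytoplasmic ribosomal proteins (17 of 43 lower, median 0.011) were closer to even.

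**Figure D3:**
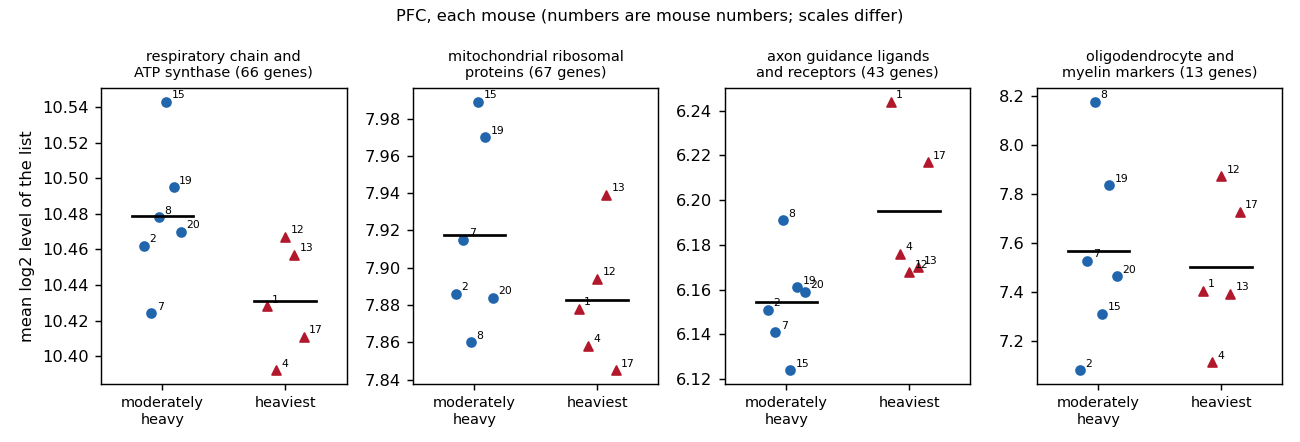
Mean log2 level of 4 gene lists (y axis, a separate scale in each panel) in each mouse of the moderately heavy (circles) and heaviest (triangles) groups, with mouse numbers and a bar at each group's mean. The groups overlap in all 4 panels, and the oligodendrocyte list spans 7.08 to 8.18.

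Axon guidance ligands and receptors leaned the other way, with 29 of 43 higher, 14 lower and a median of 0.036. Nrp2 and Efnb2 were the only 2 of the 43 at unadjusted p under 0.05 by limma, beside 3.14% of all genes. Nrp1 was higher by 0.17 (-0.06 to 0.40), and Epha7 was farthest the other way at -0.12 (-0.33 to 0.09). The list mean was 6.17 to 6.24 in the heaviest and 6.12 to 6.19 in the moderately heavy drinkers, highest in mice 1 and 17. Splicing factors of the hnRNP and SR families were higher in 23 of 34 (median 0.028), but in 16 without mouse 4 (median -0.011) and in 17 without mice 4 and 8 (-0.003). Without mouse 20, 23 splicing factors and 29 axon guidance genes were higher. Hnrnpab, a member of the hnRNP family, was at 11.61 ± 0.49 against 11.21 ± 0.58 (SD, n = 5 and 6). Of the other pathway lists, the medians lay between -0.018 for ethanol and acetaldehyde metabolism and 0.038 for retinoic acid signalling. The plot of all lists with at least 5 genes shows their medians between -0.071 and 0.061.

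**Figure D4:**
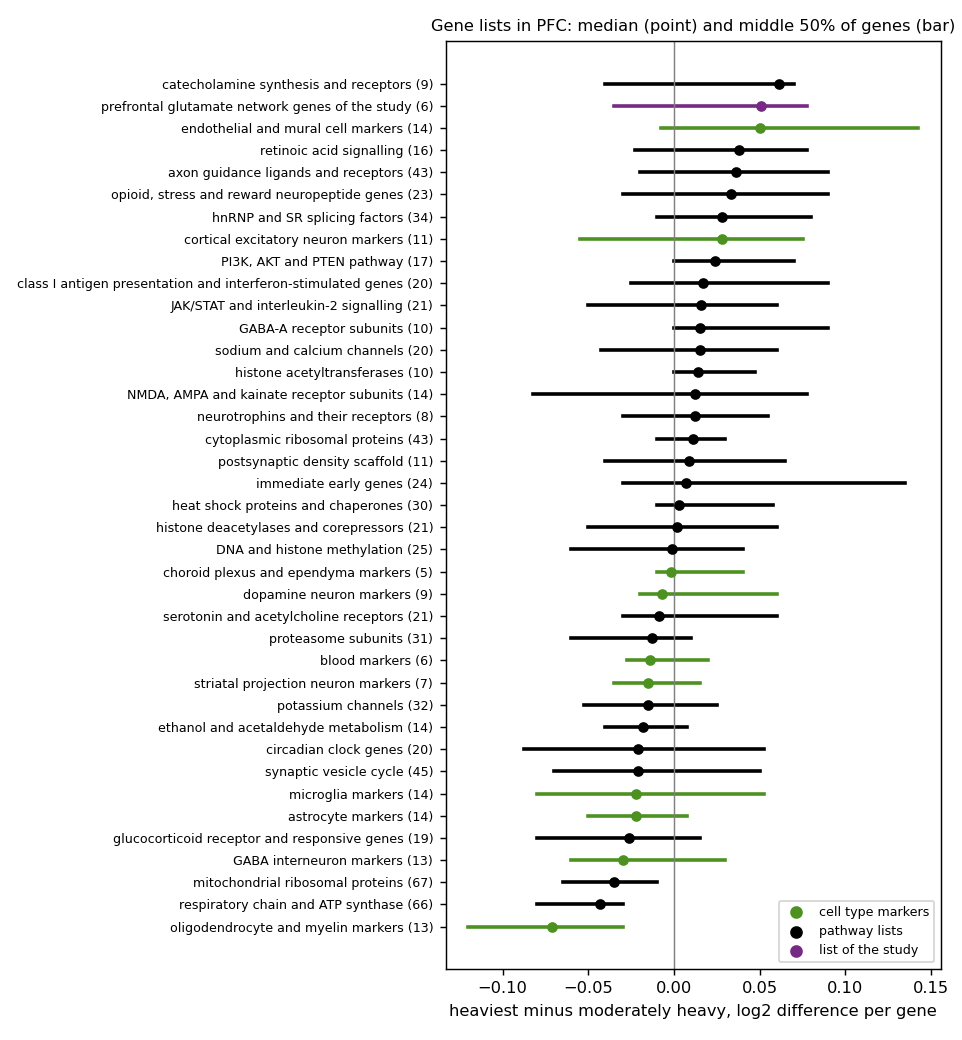
Median (point) and middle 50% (bar) of the log2 difference, heaviest minus moderately heavy drinkers in PFC, over the genes of each list with at least 5 tested genes (number in brackets), with cell type markers in green, pathways in black and the study's own list in purple. Mitochondrial lists and oligodendrocyte markers lie lowest, at -0.035 to -0.071, but the oligodendrocyte median is 0.021 without mouse 4 and 0.032 without mouse 8.

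Marker levels of other cell types overlapped between the groups. Means of the 11 cortical excitatory neuron markers were 7.45 to 7.65 in the heaviest and 7.38 to 7.76 in the moderately heavy drinkers. Astrocyte markers (9 of 14 lower, 8.85 to 9.05 against 8.87 to 9.04), microglia markers (8 of 14 lower, 7.31 to 7.5 against 7.29 to 7.48) and GABA interneuron markers (7 of 13 lower, 8.26 to 8.35 against 8.28 to 8.47) overlapped as fully. Fgfr3, a growth factor receptor of astrocytes, was lower by 0.14 with 4 of 5 heaviest mice below all moderately heavy. Endothelial and mural cell markers were higher in 10 of 14 (median 0.050, 6.37 to 6.77 against 6.41 to 6.66, again 10 without mouse 20), led by the smooth muscle genes Tagln at 0.33 (-0.13 to 0.80) and Acta2 at 0.32 (-0.10 to 0.74). Choroid plexus and ependyma markers (3.67 to 3.86 in both groups) and blood markers (4.0 to 4.12 against 3.92 to 4.20) lay below the filter level on average, with 4 of 5 and 4 of 6 genes under 4.5.

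By replicate number, the same mice had arrays of NAc (5 against 6) and VMB (5 against 5), which show whether the named differences were shared between regions. Of the 12 genes higher in PFC, 6 were also higher in NAc and 2 in VMB, and of the 12 lower in PFC, 6 were lower in NAc and 4 in VMB, as the plot of the 3 regions shows. Without the arrays of mice 1 and 7, which stood apart in VMB, 4 and 3 were shared there. Since the genes were selected for their PFC difference, smaller values elsewhere follow from the choice. The same contrast within NAc had 491 probesets at unadjusted p under 0.05 (2.48%), or 1599 (8.07%) without the arrays of mice 1 and 19, which stood apart on the first principal component of that region, and within VMB 202 (1.02%), with 0 at adjusted p under 0.01 by limma over all arrays of each region. The difference of the contrast between regions passed the adjusted threshold for 0 probesets against NAc (596 at unadjusted p under 0.05, 3.01%) and 0 against VMB (551, 2.78%) by limma. Among the 24 genes the unadjusted count was 9 for NAc and 14 for VMB. The PFC difference for which these genes were selected is part of that term, so high counts among them follow from the choice and do not show a tie to PFC. Without the arrays that stood apart the adjusted counts were again 0, the unadjusted counts 1418 and 483, and the counts among the 24 genes 9 and 14. Efnb2 differed by 0.24 in PFC, -0.07 in NAc and -0.17 in VMB, and Ddx21 by -0.25, 0.14 and 0.15.

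**Figure D5:**
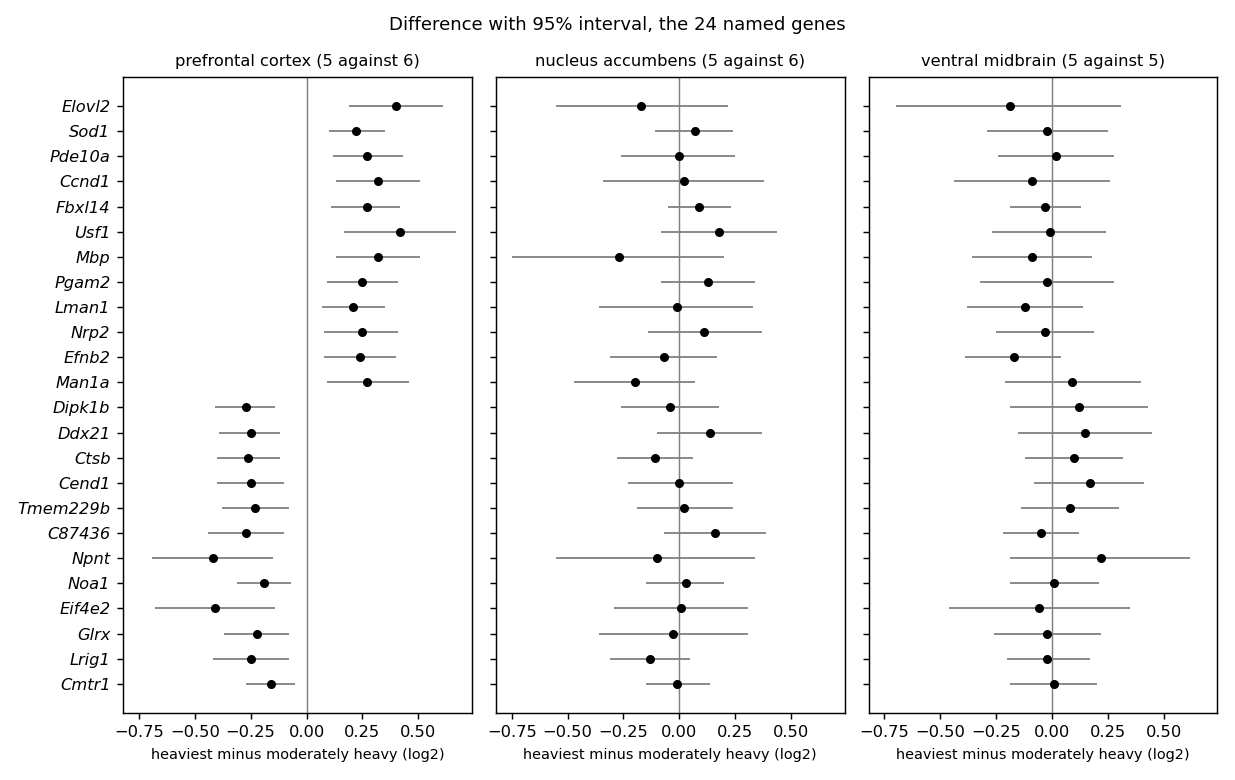
Difference between heaviest and moderately heavy drinkers (log2, x axis) with its 95% interval for the 24 genes named in PFC, in PFC, NAc and VMB. The intervals of all 24 genes include 0 in NAc and in VMB.

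The lean of the mitochondrial lists was seen in all 3 regions of these mice, by different amounts. Respiratory chain genes were lower in 58 of 66 in PFC, 42 in NAc and 49 in VMB, with medians of -0.043, -0.020 and -0.028. Mitochondrial ribosomal genes were lower in 55 of 67, 45 and 56, where 51.6%, 49.2% and 54.4% of all genes were lower in PFC, NAc and VMB. Without the arrays that stood apart, the respiratory counts were 43 in NAc and 48 in VMB and the mitochondrial ribosomal counts 47 and 56. Outside PFC such a lean was not particular to mitochondrial lists. With all arrays, proteasome subunits were lower in 25 of 31 in NAc (median -0.054) and 21 in VMB (-0.016). Cytoplasmic ribosomal proteins were lower in 13 of 43 in NAc (0.017) and 34 in VMB (-0.028). Splicing factors were higher in 23 of 34 in PFC (16 without mouse 4, with a median below 0) and lower in 30 in NAc (29 without mice 1 and 19), with medians of 0.028 and -0.091. In VMB 20 were lower with all arrays and 14 without mice 1 and 7. These differences between regions were not tested as lists.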

How the data were processed

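The authors hybridised RNA of single mice to 1 array per brain region and deposited log2 RMA levels, which were used as they stand. GCOS and RMA are credited to the submitters' processing notes. RMA scales arrays to a common distribution, so a shift of all transcripts cannot be seen.

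Probesets reaching 4.5 on at least 1 array (19815 of 22626) were tested with limma 3.58.1 in R 4.3.3 (5 against 6 arrays, Benjamini-Hochberg adjustment, false discovery rate 1%). Exact permutation tests used scipy 1.17.1 in Python 3.11.15, two-sided. GEO's platform annotation gave a single symbol for 20380 probesets, more than 1 for 691 and no symbol for 1555. Named genes were the 12 with the smallest p in each direction at a mean of 5 or more, the 6 glutamate network genes of the study, and up to 4 members per list at unadjusted p under 0.05. Members, groups and lists were chosen with earlier results of these data known. Lists were written from general knowledge and are described by counts and medians, with no test. A simulated data set with known differences was used to test the fits.

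Replicate numbers in the array titles were taken as mouse numbers, to pair the arrays of 1 animal across regions. Deviations of same-mouse arrays correlated at 0.06 on average for PFC and NAc (-0.094 to 0.297, 11 pairs) and 0.054 for PFC and VMB (-0.261 to 0.284, 10 pairs). The array of the same number was the best match in 1 of 11 and 0 of 10 pairs, so the pairing rests on the titles alone. The region comparison was fitted without the block, with the block as an alternative (statmod 1.5.0). Other alternatives changed the filter, the scaling, the weights, the moderation, the arrays and the test. The number of arrays limits the precision.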

Additional observations from a re-analysis of the deposited data

Results flagged for a closer look

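Of 112 groups of values that were checked (each named gene and each of 14 lists in each group of mice), 8 held a mouse that stood far from the rest of its group, where chance alone would mark about 1 in 20 groups, or 5.6. The moderately heavy mouse 7 was lowest for Nrp2, at 5.96 with the next mouse at 6.14, and for Ctsb, at 7.10 with the next at 7.27. The moderately heavy mouse 15 was lowest for Th, at 4.29 with the next at 4.5, and highest for Npy, at 10.21 with the next at 10.05. Among the heaviest drinkers, mouse 1 was lowest for Elovl2, at 4.96 with the next at 5.17, and mouse 13 was lowest for Noa1, at 6.07 with the next at 6.20. Heaviest mouse 4, which lies at the boundary between the groups, had the lowest mean of the dopamine neuron markers, at 4.48 with the other 4 heaviest mice at 4.61 to 4.62. It also had the highest mean of the astrocyte markers, at 9.05 with the next at 8.91. No named gene had a difference between regions with an adjusted p under 0.05 by limma.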

How the results depend on the processing

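The count at adjusted p under 0.01 was 0 under every alternative, with a smallest adjusted p of 0.405 (without mouse 4). The counts at unadjusted p under 0.05 (345 higher, 326 lower) came to 195 and 194 with 1 probeset per gene, where 11342 rather than 19815 were tested. Leaving out 1 mouse gave 295 to 531 higher and 256 to 391 lower, the most higher (531) without heaviest mouse 13, whose part was not tested further. Without both boundary mice, 4 and 8, there were 337 and 241. The methods' t-test gave 682 in both directions and 0 after adjustment. The 24 genes kept their direction in all alternatives that fitted them. The setting with 1 probeset per gene fitted 14 of them, since the others were named on a probeset that was not their gene's brightest. On the brightest, Mbp, Man1a, Lman1 and Ddx21 went the other way, at -0.07, -0.06, -0.08 and 0.04, and Sod1 differed by 0.00. Ccnd1, Usf1, Cend1, Ctsb and Eif4e2 kept their direction there. Leaving out 1 mouse gave -0.02 to 0.14 for Grik1 (reversed, at -0.02, without mouse 4 or 15) and -0.04 to 0.22 for Dlg4 (reversed without mouse 15, at -0.03, and mouse 20, at -0.04), and the cause was not tested.

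With the mouse number as a replicate block, the region difference had 673 (NAc) and 634 (VMB) probesets at unadjusted p under 0.05, or 665 and 584 from differences within each mouse, and 0 adjusted, so the block changed no call. Without the arrays of mice 1 and 19, chosen after seeing the data, the NAc count was 1418. Small region differences reversed for Grin2b (NAc: -0.01 without the PFC array of mouse 20 and -0.04 without mice 1 and 19; VMB: -0.01 within each mouse and -0.01 without that array), Th (NAc, -0.01 after quantile normalization) and Cdkn1a (NAc, -0.02 without mice 1 and 19).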

Other observations

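The PFC array of moderately heavy mouse 19 carried growth hormone and prolactin transcripts, genes chosen after their values were seen. Gh was at 7.39, 7.07, 6.66 and 6.28 on its 4 probesets in mouse 19, where the other 10 mice were at most 4.51, 4.25, 3.34 and 3.26. Prl, the prolactin gene, was at 5.55 in mouse 19 and at 3.73 to 4.03 in the other 10. Pomc, the precursor gene of pituitary corticotropin, was at 5.61 in mouse 19 on its brighter probeset, inside the 5.45 to 5.74 of the others. On the NAc array of mouse 19 Gh was not raised, at 5.70 on the first of its probesets beside 5.30 to 6.07 in the other mice. Prl and the pituitary hormone genes Cga and Lhb were highest in that array, at 4.89, 4.84 and 6.04, with the next mouse at 4.85, 4.47 and 5.83. Tshb and Pomc lay inside the range of the other mice. In VMB heaviest mouse 4 stood out, with Gh at 7.25 on the same Gh probeset and the other 9 mice at 4.72 to 5.15. Removing mouse 19 left 606 probesets at unadjusted p under 0.05 in the PFC comparison and 0 at adjusted p under 0.01 by limma.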
